A study of Mus musculus with 14 samples.

Results

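The 10 genes described here encode parts of the MHC class I presentation route and the immunoproteasome, and their transcripts were followed in whole mouse heart after irradiation of the chest. They are 10 of the 54532 genes of the deposited count table, chosen by gene symbol: the heavy chains H2-K1 and H2-D1, the light chain B2m, the peptide loading genes Tap1, Tap2 and Tapbp, the immunoproteasome subunits Psmb8, Psmb9 and Psmb10, and the transactivator Nlrc5. All 10 passed the filter on low counts, as did 16034 genes in all. The hearts came from 14 male wild-type (WT) C57BL/6J mice, 1 library each, irradiated or not at 8 weeks of age. The irradiated mice had received 30 Gy of cobalt γ-rays to the anterior chest under pentobarbital, with lead over the rest of the body. Hearts were taken 1 day later (Control_1d, n = 3; IRR_1d, n = 3) or 6 weeks later (Control_6w, n = 4; IRR_6w, n = 4), so the 6-week mice were also older than the 1-day mice.

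MHC class I molecules show peptides from inside the cell to CD8 T cells and are ligands for receptors of natural killer cells. Proteasomes cut proteins into peptides, the TAP transporter carries the peptides into the endoplasmic reticulum, and tapasin, the product of Tapbp, holds the transporter next to an empty heavy chain paired with β2-microglobulin. Interferons raise most genes of this route in many cell types, and the 3 immunoproteasome subunits then take the place of constitutive subunits in newly built proteasomes. In the healthy heart, endothelial and immune cells are the usual carriers of class I molecules, and cardiomyocytes carry little.

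The genes lie close together in part. On mm10, H2-K1 (ENSMUSG00000061232, chr17:33996017-34000333, minus strand), Tapbp (chr17:33915899-33929288, plus), Psmb9 (chr17:34181988-34187764, minus), Tap1 (chr17:34187553-34197225, plus), Psmb8 (chr17:34197721-34201454, plus), Tap2 (chr17:34203527-34216321, plus) and H2-D1 (ENSMUSG00000073411, chr17:35262730-35267499, plus) share the MHC on chromosome 17. B2m (chr2:122147686-122153083, plus), Psmb10 (chr8:105935735-105938444, minus) and Nlrc5 (chr8:94434356-94527272, plus) lie elsewhere. The spans of Tap1 and Psmb9 overlap by 212 bases on opposite strands. Whether the counting used strand is not given in the sources used here, so reads from those bases cannot be told apart. By the GENCODE M21 exons, 29.0% of the exonic bases of Tapbp, 18.5% of those of Tap2 and 14.7% of those of Psmb8 are shared with a neighbouring gene, against 5.79% or less for the other 7. The deposited spans of H2-K1, Tapbp and Psmb9 differ from that annotation. So do the lengths of Tapbp (3296 bases deposited, 3628 in M21) and Psmb8 (2736 and 3381), and these shares may not hold for the genes as counted. Class I heavy chains are also alike in sequence, and none of the stretches of 150 bases, the read length, in H2-K1 transcripts recurred in a transcript of another gene, against 1.35% of those of H2-D1.

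Promoters of class I genes carry a known set of elements: an NF-κB site, a site for interferon regulatory factors (IRF) and the SXY module, on which NLRC5 acts. The windows that RefSeq sequence gives on GRCm38.p6, from 250 bases before to 50 after each start site, were searched on both strands with 4 fixed strings, GGGATTCCC for NF-κB, AANNGAAA for IRF, TGACG for the X2 element and CCAAT for the Y box. Windows were at hand for 8 of the 10 genes, not for Tap2 and Nlrc5. The H2-K1 and H2-D1 windows matched at 89.7% of 242 aligned columns. Both held all 4 strings, as did 5 of the 32851 windows of all genes (0.0152%), their own among them. The first pair of elements is shown because it is shared by the 2 heavy chains, whose levels separated irradiated from control hearts at 6 weeks without overlap, with the NF-κB string and the IRF string in capitals (here the IRF string reads on the other strand):
H2-K1, chr17:34000430-34000457, minus strand: GGGATTCCCcatctccacagTTTCACTT
H2-D1, chr17:35262924-35262951, plus strand: GGGATTCCCcatctcctcagTTTCACTT

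These stretches of 28 bases differed at 1 base and began at position -124 from the RefSeq start in H2-K1 and at -170 in H2-D1. The annotation of the deposited table starts H2-D1 further upstream, so the H2-D1 stretch lies inside that gene's deposited span. The second pair is shown because B2m holds it too, at the same distance, with the X2 element and the Y box (on the other strand) in capitals:
H2-K1, chr17:34000359-34000388, minus strand: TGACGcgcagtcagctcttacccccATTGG
H2-D1, chr17:35262993-35263022, plus strand: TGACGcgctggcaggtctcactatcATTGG
B2m, chr2:122147609-122147638, plus strand: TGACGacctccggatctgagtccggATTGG

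In all 3 the first bases of the strings were 25 bases apart, an arrangement found in either orientation in 31 of the 32851 windows, or 0.0944%. The distance was taken from these same genes before it was counted. The 31 windows belong to 27 genes, these 3 among them, so the share is a description. Between the capitals, B2m matched H2-K1 at 3 of the 20 bases and H2-D1 at 2, while the 2 heavy chains matched each other at 13. Singly, the strings are common. TGACG was in 5 of the 8 windows and in 20.8% of all windows, CCAAT in 6 and in 37.4%, AANNGAAA in 3 (H2-K1, H2-D1 and B2m) and in 23.9%, and GGGATTCCC in 2 and in 0.353%. Tap1 and Psmb9 held TGACG and CCAAT as well, but further apart, and their starts are 226 bases apart on opposite strands, and their windows are the same DNA over 275 bases. Such matches describe letters, not bound factors.

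Libraries held 13336746 to 16837265 counts. The summed CPM (library-size-scaled counts, by TMM) of 5 cardiomyocyte genes was high in every library, from 3710 to 34500. Of these, 3 libraries stood apart by transcripts of other tissues: Control_6w replicate 3, IRR_6w replicate 1 and IRR_1d replicate 3 had 679, 924 and 289 CPM of 2 brown fat genes, against 6.44 to 21.3 in the other 11. Control_6w replicate 3 also had 1670 CPM of T cell genes and 2270 CPM of thymocyte genes, while the other 13 libraries had at most 21.9 and 36.7. Its sums were the lowest of all libraries for cardiomyocyte (3710 CPM), endothelial (461), fibroblast (673) and macrophage and monocyte genes (225). For cardiomyocyte genes the other Control_6w hearts had 14700 to 32500 CPM. Lung epithelial genes reached 354 CPM in IRR_6w replicate 1. Control_1d replicate 1 had at most 1 count for 9.55% of the 4262 genes with a mean of 5 to 20 CPM, against 0 to 4.95% in the others. Erythroid genes summed to 50000 CPM in IRR_6w replicate 1 and 27800 in Control_1d replicate 3, against 1890 to 10300 in the other libraries. Genes of the atrium summed to 2810 CPM in IRR_6w replicate 1 and 1170 in IRR_1d replicate 3, against 9.87 to 536 in the others. The part of the erythroid and atrial transcripts in the results was not tested. In bulk tissue, fewer cells of a type and less RNA per cell cannot be told apart.

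Per kilobase of transcript, B2m was the most abundant of the 10 in every group, and Nlrc5 the least. In Control_6w, B2m was at 641 ± 196 FPKM (CPM per kilobase of the deposited gene length; SD, n = 4), H2-D1 at 120 ± 5.67, H2-K1 at 105 ± 20.8, Tapbp at 27.5 ± 4.86, Psmb10 at 20.2 ± 2.47, Tap2 at 6.64 ± 2.78, Psmb8 at 6.44 ± 5.52, Tap1 at 4.62 ± 3.63, Psmb9 at 4.12 ± 3.53 and Nlrc5 at 0.944 ± 0.590. In that order, the steps from B2m to H2-D1, from H2-K1 to Tapbp and from Psmb10 to Tap2 exceeded the summed SDs. The other neighbours did not differ beyond their spread, among them the 2 heavy chains and the run from Tap2 to Nlrc5. Without Control_6w replicate 3 (n = 3) the order was the same, but Psmb8 was at 3.72 ± 1.11, Tap1 at 2.82 ± 0.404 and Psmb9 at 2.36 ± 0.226 FPKM, and the steps from H2-D1 (118 ± 4.16) to H2-K1 (95.6 ± 12.7) and from Psmb9 to Nlrc5 (0.726 ± 0.488) exceeded the summed SDs as well.

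**Figure D1:**
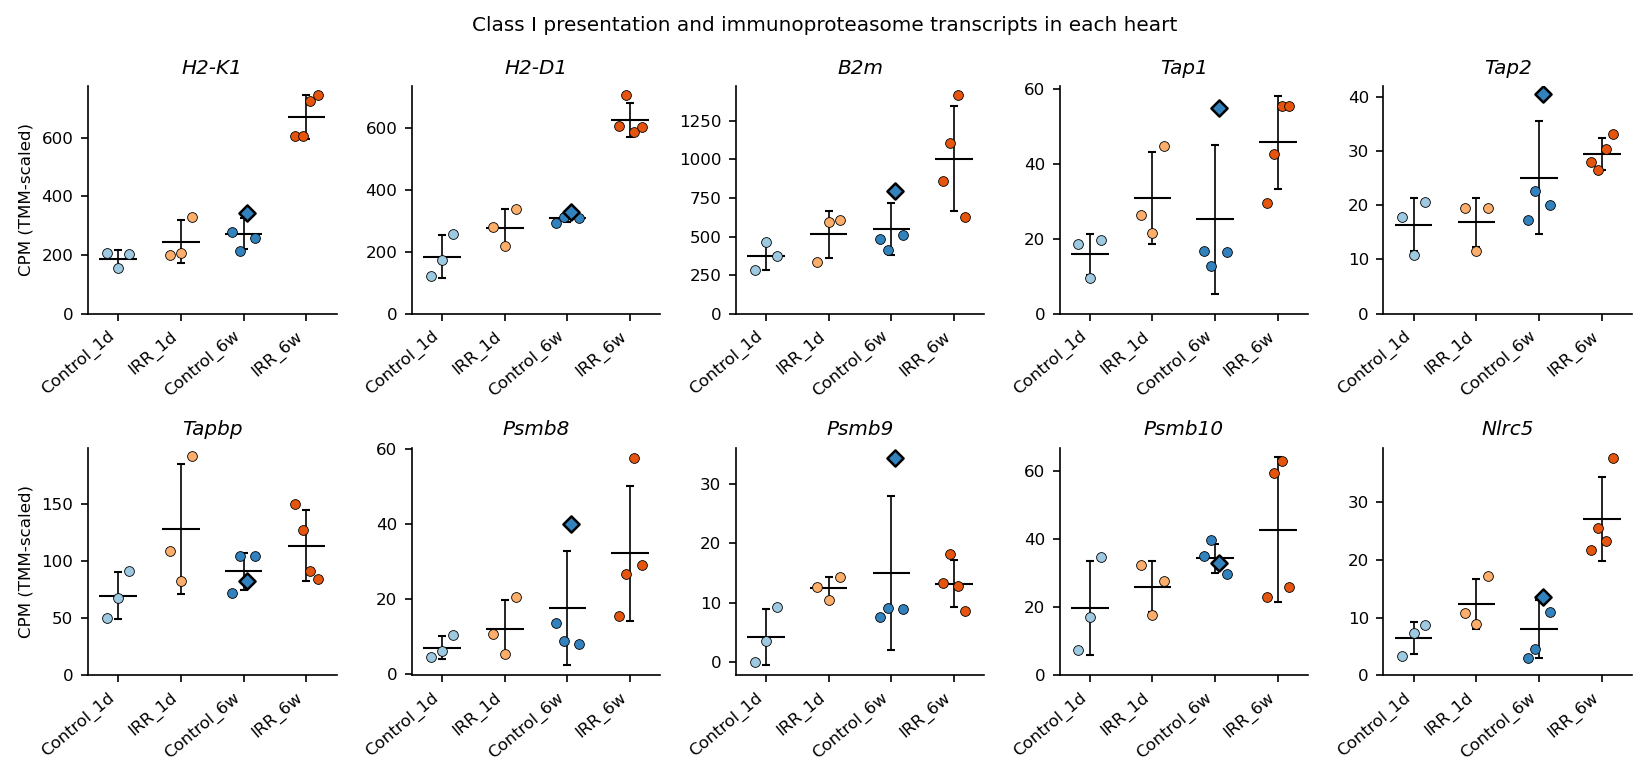
Level of each of the 10 genes in every heart (y axis, TMM-scaled CPM, linear) in the 4 groups, where points are mice, bars are group means and whiskers are SDs. The diamond marks Control_6w replicate 3, and H2-K1, H2-D1 and Nlrc5 in IRR_6w lie above every other library.

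At 6 weeks after irradiation the classical class I heavy chains were higher in every irradiated heart than in any control. H2-K1 rose 2.45-fold and was called a differentially expressed gene (DEG), from 273 ± 54.1 CPM in Control_6w to 670 ± 75.8 in IRR_6w (SD, n = 4 each). H2-D1, 2.02-fold, was at 310 ± 14.6 and 625 ± 53.9 CPM, and Nlrc5, 3.37-fold, at 8.02 ± 5.01 and 27.1 ± 7.29, without passing the test. A gene was called when its fold change was above 2 or below 0.5 and its adjusted p (edgeR, Benjamini-Hochberg over 16034 genes) was under 0.05. Of the 10 genes, 1 was called higher, against 0.237% of all genes tested. At an unadjusted p under 0.05, 4 were higher (H2-K1, H2-D1, B2m and Nlrc5), against 5.43% of all genes, and in 3 (H2-K1, H2-D1 and Nlrc5) every irradiated heart lay above every control, against 4.07%. The log2 fold change was above 0 in 9 of the 10, with a median of 0.86 against -0.09 over all genes.

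H2-K1 encodes one of the polymorphic heavy chains that hold the presented peptide. It was at 277, 212, 343 and 259 CPM in Control_6w replicates 1 to 4 and at 605, 604, 724 and 746 CPM in IRR_6w. The lowest irradiated heart was well above the highest control. The log2 fold change was 1.29 (SE 0.244, adjusted p = 0.0468 by edgeR). The call was narrow: over the 22 alternatives run the adjusted p ran from 2.15e-05 to 0.207, with log2 fold changes of 1.17 to 1.51 that all had the same sign.

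H2-D1, the second classical heavy chain of this strain, was at 292, 312, 327 and 307 CPM in Control_6w and at 607, 705, 586 and 603 CPM in IRR_6w. The 4 controls lay within a narrow band and none came near an irradiated heart. Its log2 fold change was 1.01 (SE 0.250, 95% interval 0.48 to 1.55, adjusted p = 0.118 by edgeR).

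B2m encodes the light chain that every class I heavy chain needs to reach the surface. Levels were 487, 414, 796 and 507 CPM in Control_6w and 863, 1110, 1420 and 626 CPM in IRR_6w. The groups overlapped, through control replicate 3 and irradiated replicate 4. The log2 fold change was 0.86 (SE 0.326, adjusted p = 0.412 by edgeR).

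Nlrc5, a member of the NOD-like receptor family and the transactivator of class I genes, had the highest estimate of the 10. Its counts gave 3.04, 4.59, 13.5 and 10.9 CPM in Control_6w and 21.8, 25.6, 23.3 and 37.8 CPM in IRR_6w. The groups did not overlap, but the controls spread over a wide range. The log2 fold change was 1.75 (SE 0.472, 95% interval 0.74 to 2.76, adjusted p = 0.154 by edgeR). With DESeq2 on the same libraries, H2-K1, H2-D1 (adjusted p = 0.0025) and Nlrc5 (adjusted p = 0.0215) were called, and 1.92% of genes were called higher.

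The peptide loading genes were less even. Tap1, which encodes one chain of the peptide transporter, was at 16.7, 12.8, 55.0 and 16.6 CPM in Control_6w and at 29.7, 42.6, 55.5 and 55.7 CPM in IRR_6w. Of the controls, 3 were below every irradiated heart, and replicate 3, the library with thymocyte and T cell transcripts, was level with the 2 highest. Its log2 fold change was 0.86 (SE 0.442, adjusted p = 0.620 by edgeR).

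Tap2, the other chain of the transporter, was at 17.3, 22.6, 40.5 and 20 CPM in Control_6w and at 27.9, 26.5, 30.4 and 33.2 CPM in IRR_6w. The highest value of all was control replicate 3. Its log2 fold change was 0.23 (SE 0.306), and 0.06 to 0.57 with 1 library left out.

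Tapbp, whose product tapasin edits the bound peptides, was at 72.0, 104, 82.7 and 104 CPM in Control_6w and at 150, 127, 91.0 and 84.0 CPM in IRR_6w. Only 2 irradiated hearts were above the controls. Its log2 fold change was 0.32 (SE 0.298), and 0.15 to 0.44 with 1 library left out. The edgeR adjusted p was 0.875 for Tap2 and 0.814 for Tapbp.

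The immunoproteasome subunits overlapped between the groups in all 3 cases. Psmb8 (LMP7) replaces the chymotrypsin-like subunit and was at 13.6, 8.87, 40 and 8.01 CPM in Control_6w and at 15.5, 26.6, 57.6 and 29.0 CPM in IRR_6w. All controls but replicate 3 were below every irradiated heart. Its log2 fold change with all libraries was 0.86 (SE 0.569, 95% interval -0.35 to 2.08, adjusted p = 0.723 by edgeR). With 1 library left out this ranged from 0.42 to 1.66.

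Psmb9 (LMP2) was at 7.68, 9.17, 34.4 and 9.02 CPM in Control_6w and at 13.3, 18.3, 12.8 and 8.63 CPM in IRR_6w. Control replicate 3 was the highest of the 14 libraries. It was the only one of the 10 with an estimate below 0, a log2 fold change of -0.19 (SE 0.781, adjusted p = 0.966 by edgeR).

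Psmb10 (MECL-1) was at 35.1, 39.8, 33.0 and 29.7 CPM in Control_6w and at 23, 59.4, 63.0 and 26.0 CPM in IRR_6w. The irradiated hearts lay on both sides of the controls, 2 above all of them and 2 below. The log2 fold change was 0.32 (SE 0.426, adjusted p = 0.876 by edgeR), and 0.07 to 0.52 with 1 library left out.

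**Figure D2:**
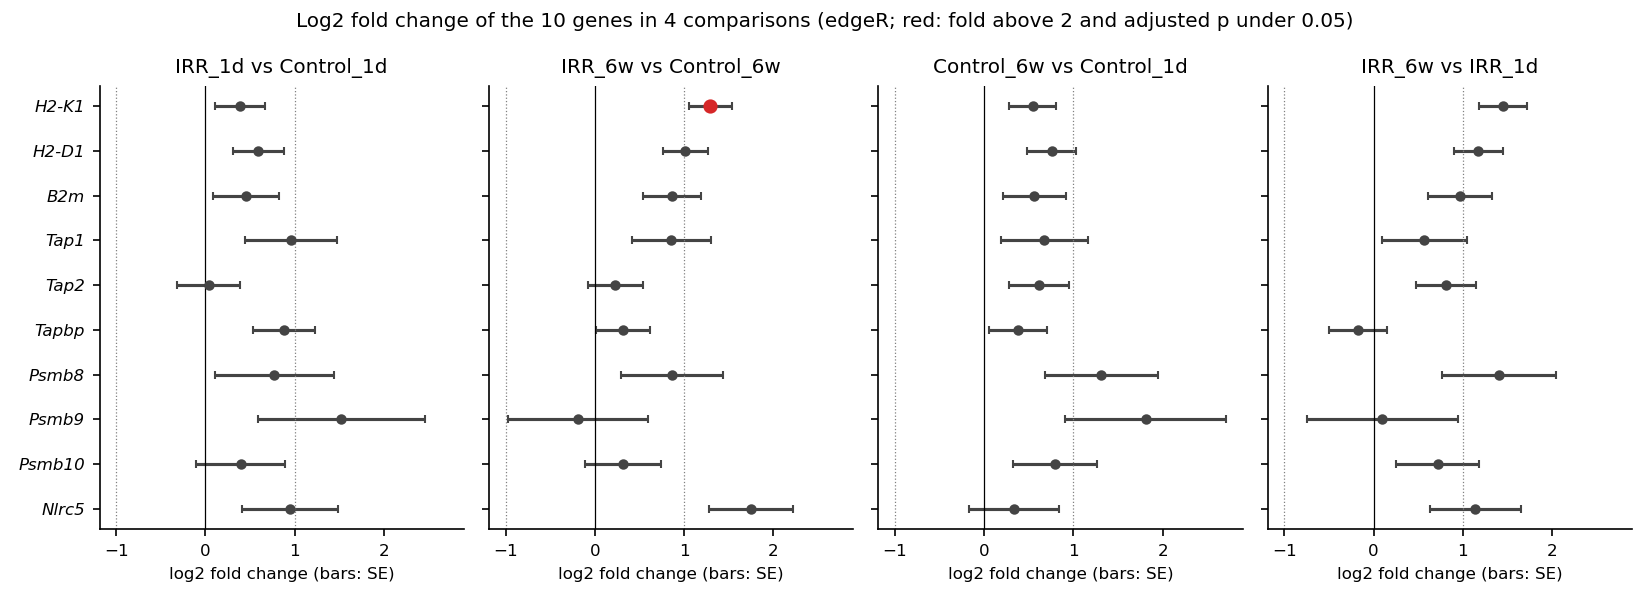
Log2 fold change (x axis; whiskers are SEs) of each gene (y axis) in 4 comparisons, with dotted lines at a 2-fold difference either way. Only H2-K1 at 6 weeks, in red, passed both limits, and 9 of the 10 estimates lie above 0 at 6 weeks.

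Control_6w replicate 3 had the highest level of its group in 8 of the 10 genes, all but Tapbp and Psmb10. Without it, the 6-week log2 fold change of Tap1 was 1.58 (adjusted p = 0.0742 by edgeR), that of Psmb8 1.66 (0.217), that of Tap2 0.57 (0.458), that of Psmb9 0.62 (0.825), that of B2m 1.10 (0.186), that of Nlrc5 2.13 (0.0846) and that of H2-D1 1.04 (0.117). H2-K1 was at 1.43 and still called (adjusted p = 0.0435), against 0.192% of genes called higher in that fit. All 10 estimates were above 0, and 6 had an unadjusted p under 0.05, against 7.22% of genes higher at that limit. Its thymocyte, T cell and brown fat values are given above, and their part in these levels was not tested. Without all 3 libraries that stood apart, H2-K1 (log2 fold change 1.47, SE 0.208, adjusted p = 0.00613 by edgeR) and Tap1 (1.73, SE 0.30, adjusted p = 0.0177) were called, against 0.998% of genes called higher in that fit.

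**Figure D3:**
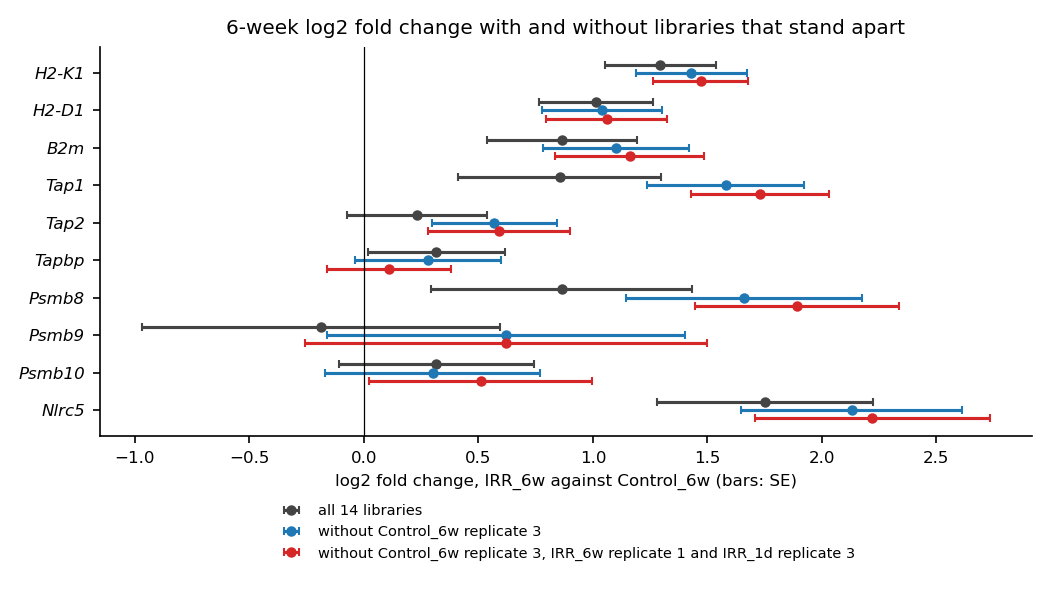
Log2 fold change of IRR_6w against Control_6w (x axis; whiskers are SEs) for each gene (y axis) with all 14 libraries (grey), without Control_6w replicate 3 (blue) and without the 3 libraries that stood apart (red). Tap1 moves from 0.86 to 1.58 and 1.73 and Psmb9 changes sign, while H2-D1 stays between 1.01 and 1.06.

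Macrophage transcripts were also higher in the irradiated hearts at 6 weeks. The summed CPM of 8 macrophage and monocyte genes (Cd68, Csf1r, Adgre1, Cd14, Lyz2, Fcgr1, C1qa and C1qb) ranged from 225 to 632 in Control_6w and from 1030 to 1360 in IRR_6w, without overlap, and none of the 8 was at 0 in any library. None of the 8 was called, and 5 were higher without overlap between the groups, against 4.07% of all genes. For 4 endothelial genes the 6-week ranges were 461 to 1470 and 857 to 1500 CPM, and for 5 cardiomyocyte genes 3710 to 32500 and 7230 to 23100 CPM, overlapping in both cases. For 4 fibroblast genes they were 673 to 1730 and 1530 to 2110 CPM, overlapping, with none of the 4 called. Among them Col1a1 (log2 fold change 1.38, adjusted p = 0.289 by edgeR) and Col1a2 (1.26, adjusted p = 0.242) did not overlap between the groups, while Dcn (0.16) and Pdgfra (-0.58) did. For 3 neutrophil genes, of which up to 2 were at 0 in a single irradiated heart, they were 4.82 to 19.5 and 10.1 to 52.4 CPM, overlapping. Ranges also overlapped for T cell genes (3.04 to 1670 and 10.7 to 21.9 CPM), NK cell genes (1.29 to 27.4 and 2.87 to 8.58), B cell genes (2.75 to 18 and 8.40 to 51.1) and dendritic cell genes (19.0 to 58.5 and 27.4 to 52.0). For NK and B cell genes the overlap came from Control_6w replicate 3 alone, at 27.4 and 18 CPM. The other controls had 1.29 to 1.99 and 2.75 to 6.01 CPM, below every irradiated heart. Up to 3 of the 4 NK cell genes were at 0 in a single control. The part of these cells in the class I levels was not tested.

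At 1 day none of the 10 genes was called by edgeR, DESeq2 or limma, where edgeR called 0.0249% of all genes higher. All 10 estimates were above 0, with a median log2 fold change of 0.68 against 0.06 over all genes. Without the 3 libraries that stood apart, 9 of the 10 were above 0 and the median was 0.39. With all libraries, Tapbp alone had an unadjusted p under 0.05, while 1.94% of all genes were higher at that limit. Without Control_6w replicate 3, which belongs to neither group but enters the shared estimate of the spread, H2-D1 and Tap1 joined it, against 2.37% of genes. In 3 genes (Tap1, Psmb9 and Nlrc5) each irradiated heart was above each control, against 6.51% of all genes. The edgeR adjusted p was 1.00 for all 10.

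H2-K1 was at 206, 155 and 202 CPM in Control_1d and at 201, 207 and 329 CPM in IRR_1d, where replicates 1 and 2 lay at the level of the controls. H2-D1 was at 121, 173 and 258 CPM and at 279, 217 and 336 CPM. B2m was at 283, 462 and 377 CPM and at 334, 596 and 610 CPM. The groups overlapped in all 3 class I chains, with log2 fold changes of 0.39 (SE 0.278), 0.59 (SE 0.287) and 0.46 (SE 0.374).

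Tap1 was at 18.5, 9.56 and 19.6 CPM in Control_1d and at 26.3, 21.6 and 44.8 CPM in IRR_1d, a log2 fold change of 0.96 (SE 0.514, 95% interval -0.14 to 2.06). Tapbp was at 50.3, 67.7 and 90.7 CPM and at 109, 82.5 and 192 CPM, a log2 fold change of 0.88 (SE 0.347, 95% interval 0.14 to 1.62). Tap2 was nearly level, at 17.9, 10.9 and 20.5 CPM against 19.4, 11.6 and 19.5 CPM. IRR_1d replicate 3, one of the libraries with brown fat transcripts, was the highest of its group in 9 of the 10 genes, all but Psmb10.

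Nlrc5 was at 3.26, 7.24 and 8.70 CPM in Control_1d and at 10.8, 8.92 and 17.2 CPM in IRR_1d, a log2 fold change of 0.95 (SE 0.538). Psmb9 was at 0.0626, 3.52 and 9.39 CPM and at 12.6, 10.5 and 14.3 CPM, a log2 fold change of 1.52 (SE 0.932). The lowest of these was a single count, in Control_1d replicate 1, the library with many genes at 0 or 1 count. Without that library the log2 fold change of Psmb9 was 0.94 (SE 0.659), that of Nlrc5 0.63 and that of Psmb10 0.00, and no gene of the 10 had an unadjusted p under 0.05. Psmb8 was at 4.63, 6.14 and 10.5 CPM against 10.6, 5.32 and 20.5 CPM, and Psmb10 at 7.45, 17.2 and 34.8 CPM against 32.4, 17.8 and 27.8 CPM. Both overlapped between the groups. Without the 3 libraries that stood apart, the log2 fold change was 0.12 for H2-K1, 0.59 for Tap1, 0.46 for Tapbp and 0.17 for Psmb8, and no gene of the 10 had an unadjusted p under 0.05.

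Markers of some cell types also differed at 1 day. The summed CPM of endothelial genes was 1120 to 1400 in Control_1d and 777 to 964 in IRR_1d, that of T cell genes 1.61 to 7.14 and 0.528 to 1.37, and that of dendritic cell genes 38.3 to 58.1 and 24.6 to 35, all lower in the irradiated hearts without overlap. Up to 5 of the 6 T cell genes and 2 of the 4 dendritic cell genes were at 0 in a single heart. Macrophage and monocyte genes overlapped, at 521 to 730 and 560 to 706 CPM, and of the 8 genes 2 were higher without overlap, against 6.51% of all genes, and 3 had estimates below 0. The log2 fold change was 1.49 for Cd68 and 1.2 for Fcgr1, the 2 without overlap, and -0.05 for Csf1r, -0.29 for Cd14 and -0.22 for Lyz2. None of these genes was called, and their part in the class I levels at 1 day was not tested.

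Between the irradiated groups, 6 weeks against 1 day, no gene of the 10 was called by edgeR, against 0.0312% of all genes called higher. Here 6 genes were higher at an unadjusted p under 0.05 (H2-K1, H2-D1, B2m, Tap2, Psmb8 and Nlrc5), against 4.2% of all genes. Every 6-week heart was above every 1-day heart in 5 (H2-K1, H2-D1, B2m, Tap2 and Nlrc5), against 5.44%. The median log2 fold change of the 10 was 0.89, and -0.02 over all genes. H2-K1 had a log2 fold change of 1.45 (SE 0.271, adjusted p = 0.0762 by edgeR), H2-D1 1.17 (SE 0.276, adjusted p = 0.270), B2m 0.97 (SE 0.358, adjusted p = 0.734) and Tap2 0.81 (SE 0.337, adjusted p = 0.820). Tapbp was the exception, at -0.18 (SE 0.321). H2-K1 was called without Control_6w replicate 3 (adjusted p = 0.0297, where 0.192% of genes were called higher), which belongs to neither group compared, and without the 3 libraries (1.76, adjusted p = 0.00867, where 0.565% of genes were called higher). DESeq2 called H2-K1 (adjusted p = 1.56e-05) and H2-D1 (adjusted p = 0.00191), with 0.939% of genes called higher.

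Marker sums moved with this comparison as well. Between IRR_1d and IRR_6w, without overlap, the summed CPM of macrophage and monocyte genes was higher at 6 weeks (560 to 706 against 1030 to 1360), as was that of T cell genes (0.528 to 1.37 against 10.7 to 21.9), B cell genes (0.515 to 1.63 against 8.40 to 51.1) and NK cell genes (0.515 to 1.29 against 2.87 to 8.58). Thymocyte genes (at most 0.0858 CPM against 1.02 to 15.9) and lung epithelial genes (at most 0.0644 against 0.949 to 354) did not overlap either. Many of these sums are near 0. In a single heart, up to 5 of the 5 thymocyte and 4 of the 4 lung epithelial genes were at 0 in IRR_1d, and up to 4 and 3 in IRR_6w. For T cell genes this was up to 4 of the 6 in IRR_1d and 2 in IRR_6w, and for NK cell genes 1 of the 4 and 2. The part of these transcripts in the class I levels was not tested.

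The unirradiated hearts were also compared, since mice at 6 weeks were older. All 10 estimates of Control_6w against Control_1d were above 0, with a median log2 fold change of 0.64 against 0.12 over all genes, of which 59.1% were above 0. None was called by edgeR, DESeq2 or limma, and edgeR called no gene higher (0% of 16034). H2-D1 had an unadjusted p under 0.05 (log2 fold change 0.75, SE 0.272, adjusted p = 0.902 by edgeR), against 3.54% of all genes, and H2-K1 and H2-D1 did not overlap between the groups, against 3.38%. H2-K1 was at 0.54 (SE 0.263). Without Control_6w replicate 3 this difference was 0.41 for H2-K1 and 0.72 for H2-D1, and Tap1 and Nlrc5 were both at -0.05, so 8 of the 10 were above 0, with a median of 0.415. Psmb8 went from 1.31 to 0.52 and Psmb9 from 1.81 to 1.00. Without Control_1d replicate 1, the library with many genes at 0 or 1 count, all 10 were above 0, with a median of 0.565. H2-D1 was then at 0.52, Psmb9 at 1.22 and Psmb10 at 0.40, and none of the 10 had an unadjusted p under 0.05. The comparison of IRR_6w with IRR_1d therefore holds a difference in age as well as in time since irradiation, and the design cannot tell them apart within it.

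Whether the irradiation effect itself differed between 6 weeks and 1 day was tested as an interaction. EdgeR called no gene higher (0%), and DESeq2 and limma called none of the 10. H2-K1 alone among the 10 had an unadjusted p under 0.05, against 2.13% of all genes higher at that limit. Its effect was larger at 6 weeks by 0.90 on the log2 scale (SE 0.368, 95% interval 0.12 to 1.69, adjusted p = 0.990 by edgeR). For H2-D1 the difference was 0.42 (interval -0.39 to 1.23), for B2m 0.41 (-0.65 to 1.47), for Nlrc5 0.81 (-0.70 to 2.32) for Tapbp -0.56 (-1.54 to 0.41) and for Psmb9 -1.71 (-4.30 to 0.88). Of the 10 differences 6 were above 0, with a median of 0.14 against -0.15 over all genes. That median was 0.575 without Control_6w replicate 3 (7 of 10 above 0), 0.315 without Control_1d replicate 1 (7 of 10) and 0.76 without the 3 libraries that stood apart (8 of 10). In that last fit the difference for H2-K1 was 1.35 (SE 0.31, adjusted p = 0.167 by edgeR), and H2-K1, Tap1 and Psmb8 had an unadjusted p under 0.05, against 4.77% of genes higher at that limit. These intervals are wide, and they do not show that the effect was alike at the 2 times. The comparisons share groups and are not independent of each other.

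Each immunoproteasome subunit was set against the constitutive subunit whose place it takes: Psmb8 against Psmb5, Psmb9 against Psmb6 and Psmb10 against Psmb7. The ratio is taken within a library, so it does not depend on the scaling between libraries. Per length, Psmb8 stood at 4.62% ± 2.12 of Psmb5 in the controls of 1 day (Control_1d, SD, n = 3) and at 9.44% ± 7.78 in IRR_1d (n = 3). At 6 weeks it stood at 10.9% ± 12 in Control_6w (n = 4) and 19.3% ± 3.82 in IRR_6w (n = 4). Psmb9 stood, in the same order of groups, at 3.65% ± 3.37, 10.6% ± 2.32, 12% ± 12.4 and 15.6% ± 2.85 of Psmb6. Psmb10 stood at 58.0% ± 41.7, 78.6% ± 27.0, 94.1% ± 22.7 and 145% ± 59.8 of Psmb7. In each group the mean share was higher for Psmb10 than for Psmb8 and Psmb9. The size of this gap depends on the deposited lengths: 1705 bases for Psmb10 and 3421 for Psmb7, but 2736 for Psmb8 and 899 for Psmb5. On counts alone the pairs were closer. In IRR_6w the mean log2 ratio was -0.562 for Psmb10/Psmb7, -0.785 for Psmb8/Psmb5 and -1.73 for Psmb9/Psmb6.

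In single hearts at 6 weeks, Psmb8 was 3.90, 4.55, 28.8 and 6.52% of Psmb5 in Control_6w and 16.0, 17.8, 24.8 and 18.6% in IRR_6w. The 4 irradiated hearts were close to each other, and 3 controls were far below them. Psmb9 was 5.16, 5.2, 30.5 and 7.17% of Psmb6 in Control_6w and 16.6, 13.4, 19.1 and 13.1% in IRR_6w, the same arrangement. In both the exception was control replicate 3. On the log2 scale the 6-week difference was 1.32 for Psmb8/Psmb5 (exact permutation p = 0.143, two-sided), 0.81 for Psmb9/Psmb6 (exact p = 0.20) and 0.56 for Psmb10/Psmb7 (exact p = 0.20). Without replicate 3 the 3 differences were 1.96, 1.41 and 0.71. Over all fits with 1 library left out they ranged from 1.0 to 1.96, 0.56 to 1.41 and 0.33 to 0.8.

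At 1 day the differences were 0.82, 2.86 and 0.69 (exact permutation p = 0.50, 0.10 and 0.60), where 0.10 is the smallest p that 3 against 3 allows. The second falls to 0.97 without Control_1d replicate 1 and its single Psmb9 count. With 1 library left out, the first ranged from 0.18 to 1.32 and the third from 0.04 to 1.24. All 12 differences over the 4 comparisons were above 0, and the lowest Benjamini-Hochberg adjusted value over the 12 exact permutation tests was 0.305. With 4 against 4 the smallest exact p is 0.0286, and with 4 against 3 it is 0.0571, which was reached by Psmb9/Psmb6 between IRR_6w and IRR_1d (0.56).

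**Figure D4:**
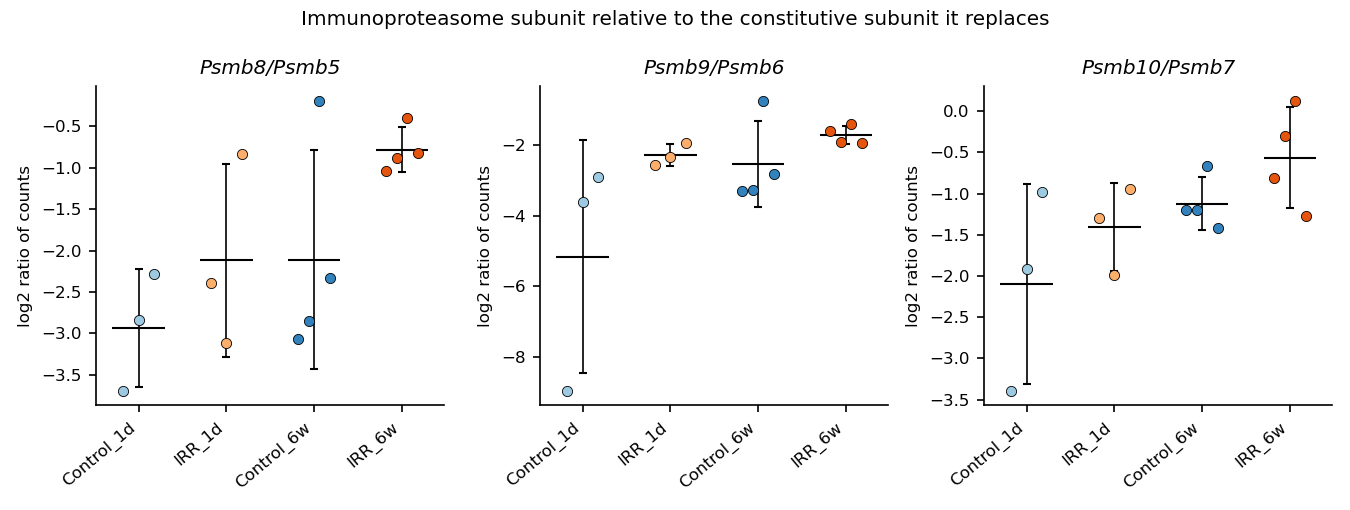
Log2 ratio of the counts of an immunoproteasome subunit to those of its constitutive counterpart (y axis) in the 4 groups, where points are hearts, bars are means and whiskers are SDs. The IRR_6w hearts cluster between -1.04 and -0.40 for Psmb8/Psmb5, and 1 Control_6w heart lies above them at -0.19.

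The constitutive subunits had estimates below 0 at 6 weeks, none of them called. Psmb6 had a log2 fold change of -0.69 at 6 weeks (SE 0.276, adjusted p = 0.461 by edgeR), Psmb7 -0.38 (SE 0.239) and Psmb5 -0.35 (SE 0.335). Psmb6 was at 72.1 ± 14.3 CPM in Control_6w and at 44.7 ± 17 in IRR_6w (SD, n = 4 each). Of the 11 genes of the shared proteasome core none passed either limit, and 10 had an estimate below 0, with a median of -0.36. The 3 with the smallest p were Psma2 (-0.44), Psma7 (-0.38) and Psmb4 (-0.37). None of the 5 activator and assembly genes, among them Psme1 (-0.24), Psme2 (0.26) and Psme3 (0.16), passed either limit. Psmb11, the subunit of the thymus proteasome, was too low to be tested and had 38.0 CPM in Control_6w replicate 3, while the other 13 libraries had at most 0.172.

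Other class I heavy chains had estimates above 0 in part. Of 17 listed, 14 were in the table and 9 were tested. At 6 weeks 0 were called, against 0.237% of all genes called higher. At an unadjusted p under 0.05, 6 were higher, against 5.43% of all genes. The median log2 fold change was 0.83, against -0.09 over all genes. The 3 with the smallest p were H2-Q6 (1.16, SE 0.319, adjusted p = 0.165 by edgeR), H2-T22 (1.37, SE 0.399, adjusted p = 0.206) and H2-Q7 (1.24, SE 0.415, adjusted p = 0.319). H2-T22 was at 28.6 ± 8.86 CPM in Control_6w and 74.0 ± 9.95 in IRR_6w, without overlap. Genes of the Q and T regions are close copies, so reads may be split or lost between them, and these values are uncertain. The 4 class I-like genes outside the MHC had a median of -0.05, and Mr1 (-0.54), Hfe (0.18) and Fcgrt (0.15) led them by p.

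Of the 6 other loading and trimming genes, none passed either limit at 6 weeks, with a median of 0.01. Erap1, which trims peptides in the endoplasmic reticulum, was at 0.41 (SE 0.249), Lnpep at 0.35 and Tapbpl, the tapasin relative that edits peptides outside the loading complex, at -0.18.

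Among 15 regulators of class I transcription, 0 were called, 4 were higher and 1 was lower at an unadjusted p under 0.05 (5.43% and 3.37% of all genes), and the median was -0.09. Stat2 (1.02, SE 0.276, adjusted p = 0.158 by edgeR) and Irf9 (1.14, SE 0.316, adjusted p = 0.170) were the 2 with the smallest p among the higher ones. Rfxap, a subunit of the RFX complex that binds the X box of the SXY module, was at -1.37 (SE 0.437, adjusted p = 0.282), with no overlap between the groups. Nlrc5 thus had a larger estimate than any gene of this list. Of 6 interferon and receptor genes 4 were tested, all receptors, and none passed either limit (Ifnar1 0.41, Ifngr2 -0.40, Ifnar2 0.18).

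Interferon-stimulated genes outside the class I route had a higher median than the 10 genes, a difference that was not tested. All 17 tested were higher at an unadjusted p under 0.05 at 6 weeks, 4 were called, and the median log2 fold change was 2.48. Over all genes, 5.43% were higher at that limit and 0.237% were called higher. Irf7, the interferon-induced regulator, rose by 3.85 (SE 0.574, adjusted p = 0.0188 by edgeR), from 10.8 ± 2.58 to 156 ± 77.3 CPM. Oas1a (3.03, adjusted p = 0.0250) and Rsad2 (2.25, adjusted p = 0.0335) rose as well, and Ifit3, named after its value was seen, was the other one called (3.39, adjusted p = 0.0400). With any of Control_6w replicates 1 and 2 and IRR_6w replicates 3 and 4 left out, none of these 4 genes was called. Over the 14 fits without 1 library, Irf7 was called in 10 (adjusted p of 0.00311 to 0.10), Oas1a and Rsad2 in 7 each and Ifit3 in 5. At 1 day 5 of the 17 were higher and 1 lower at an unadjusted p under 0.05, against 1.94% and 0.96% of all genes. The median was then 1.39. The list was chosen with earlier results of these data known, and its count is a description.

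MHC class II genes, which present peptides from outside the cell and are made mainly by professional antigen-presenting cells, had estimates on the other side of 0 at 1 day. Then all 7 estimates were below 0 (median -1.22) and 4 had an unadjusted p under 0.05, against 0.96% of all genes lower at that limit, with none called. At 6 weeks all 7 were above 0 (median 0.97), and 6 had an unadjusted p under 0.05, against 5.43% of all genes higher. H2-Eb1 was called (1.35, SE 0.253, adjusted p = 0.0468 by edgeR), against 0.237% of all genes called higher. That call was lost in 11 of the 14 fits without 1 library, with log2 fold changes of 1.25 to 1.51 and adjusted p of 0.0155 to 0.164. H2-Eb1 was at 53.2 ± 13.1 CPM in Control_1d and 19.7 ± 4.04 in IRR_1d, and at 77 ± 12.9 in Control_6w and 196 ± 45.2 in IRR_6w. H2-Aa (1.14, adjusted p = 0.0709) and Cd74 (0.94, adjusted p = 0.195), the invariant chain, followed by p at 6 weeks.

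**Figure D5:**
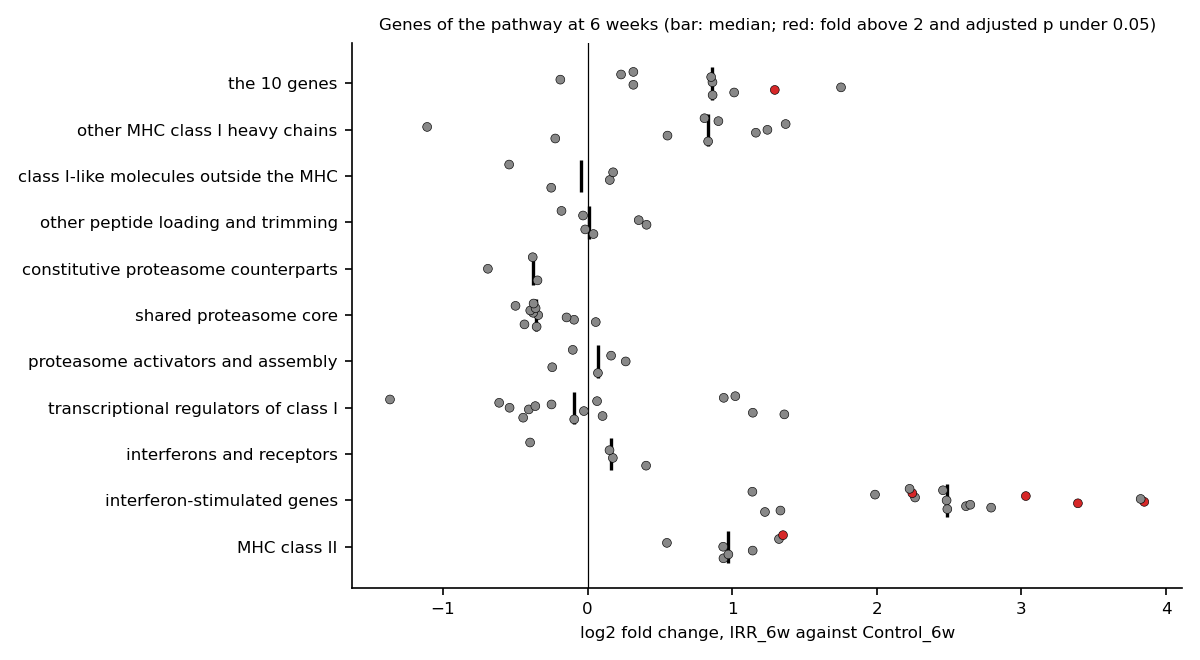
Log2 fold change of IRR_6w against Control_6w (x axis) for the tested genes of each list (rows), where points are genes, vertical bars are medians and red marks a fold above 2 with an adjusted p under 0.05. Interferon-stimulated genes lie highest, with a median of 2.48, and the proteasome core lies mostly below 0, with a median of -0.36.

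The 10 genes varied together across hearts to different degrees. Over the 14 libraries the 45 pairs had Pearson correlations of log2 CPM from 0.269 to 0.897 (median 0.663). After subtraction of the group means these ran from -0.03 to 0.869 (median 0.397). The mean standardised level of the 10 was lowest in Control_1d replicate 1 (-1.60) and highest in IRR_6w replicate 3 (1.15). All 4 IRR_6w hearts were above all other hearts, the nearest of which was Control_6w replicate 3, at 0.65 against 0.67 for the lowest IRR_6w heart. Among 16024 other genes, those most like this mean over the 14 libraries were Tfec (r = 0.945), Sema4a (0.942), B430306N03Rik (0.937), Il2rb (0.931) and Slfn1 (0.926), with values of 0.794 to 0.856 after subtraction of group means. The points share libraries, depth and group differences, and the correlations are a description.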

How the data were processed

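RNA-seq of 14 mouse hearts was analysed at the gene level. The deposited values were raw counts, whole numbers per gene and library. According to the methods and the submitters' processing notes, 150-base paired reads were checked with FastQC 0.11.8, trimmed with Trim Galore 0.6.1, aligned to mm10 with STAR 2.5.0a and counted with HTSeq. Strandedness, the annotation release and the handling of reads with several matches are not given in the sources used here.

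Genes passing filterByExpr were scaled by TMM and tested with edgeR 4.0.16 (R 4.3.3) by the quasi-likelihood test in 1 model of the 4 groups over all libraries. Genes were called at an adjusted p (Benjamini-Hochberg) under 0.05 if they also passed the fold limits of 2 or 0.5. CPM used TMM-scaled totals, and FPKM also the deposited lengths. A pseudocount of 0.5 was added to the counts in ratios, which were compared by two-sided exact permutation tests (scipy 1.17.1). By counting alone, 95% intervals for low counts are wide, and 0 counts allow up to 3. The edgeR script was tested on simulated data. DESeq2 1.42.0, limma 3.58.1, other scaling, no filter, a replicate block, left-out libraries and a pseudocount of 1 served as alternatives.

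The 10 genes and the lists were chosen with earlier results of these data known. Named genes are the 10, the constitutive proteasome counterparts and Psmb11, at most 3 per list with the smallest p at 6 weeks, and the 5 genes most correlated with the mean of the 10. Outside this rule, Ifit3 and the single marker genes of macrophages and fibroblasts were named after their values were seen.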

Additional observations from a re-analysis of the deposited data

Results flagged for a closer look

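In groups of 4 hearts, a sample was marked when its gap to the nearest other exceeded 0.829 of the range of the group (Dixon's 95% limit). Of 26 such groups of values 2 were marked, where chance marks about 1 in 20. Both were in Control_6w replicate 3: Tap1 at 55.0 CPM, with 12.8 to 16.7 in the other 3 controls, and Psmb9 at 34.4 CPM, with 7.68 to 9.17. That library also had 1670 CPM of T cell genes and 2270 CPM of thymocyte genes, and their part in these values was not tested.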

How the results depend on the processing

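The 6-week call of H2-K1 was kept under 7 of 22 alternatives and lost under 15, always with the same sign. The cause was not tested. Its adjusted p was 0.115 with edgeR on the 2 groups alone, 0.0532 with library totals, 0.0659 with limma, 0.0546 without a filter and 0.0748 with the replicate number as a block. Leaving out 1 library at a time gave log2 fold changes of 1.17 to 1.43, with the call kept without Control_1d replicate 1, IRR_1d replicate 3, Control_6w replicate 3 or IRR_6w replicate 1 and lost in the other 10 cases. Members called at 6 weeks numbered 0 under edgeR on the 2 groups, library totals, limma, no filter and the replicate block, 3 under both DESeq2 fits, 2 without the 3 libraries that stood apart and 0 to 1 with 1 library left out. Between the irradiated groups they numbered 2 under both DESeq2 fits, 1 without the 3 libraries and 0 to 1 with 1 left out.

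DEGs over all genes numbered 4 at 1 day, 41 at 6 weeks, 0 between controls, 6 between irradiated groups and 0 for the change in effect. DESeq2 on all libraries gave 30, 331, 27, 146 and 43, and on the 2 groups 58, 318, 38 and 354. EdgeR on the 2 groups gave 0 and 13 at 1 day and 6 weeks, library totals 2 and 83, limma 0 and 18 and, between irradiated groups, 10. Without a filter they were 8, 138, 6, 26 and 9. Without the 3 libraries they were 180 at 6 weeks, 1 between controls, 105 between irradiated groups and 29 for the change. With 1 library left out they ranged from 0 to 11 at 1 day, 0 to 98 at 6 weeks, 3 to 36 between irradiated groups and 0 to 3 for the change. At 6 weeks, leaving out either of the first 2 Control_6w hearts, IRR_6w replicate 3 or IRR_6w replicate 4 gave 0, and leaving out IRR_6w replicate 1 gave 98. The replicate block gave 1 at 1 day and 15 at 6 weeks. The labels do not say whether hearts with the same replicate number belong together. Correlations of deviations between such hearts ran from -0.355 to 0.287, which cannot settle it. Under the block all 12 ratio differences stayed above 0.

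Of 1080 values of single genes under alternatives, 37 changed sign, none of them of a called gene. With library totals, Tapbp between irradiated groups was at 0.08. For the change in effect, Tap1 was at 0.12 with limma and 0.15 with the block, where Psmb9 at 6 weeks was at 0.16. Without the 3 libraries, Tap2 at 1 day was at -0.08, Psmb9 at 6 weeks 0.62, Tap1 and Nlrc5 between controls -0.05 and -0.04, Tapbp between irradiated groups 0.07, and the change in effect of Tap1 1.14 and of Psmb10 0.16. With 1 library left out, ranges that crossed 0 were Tap2 at 1 day (-0.17 to 0.27), Psmb9 at 6 weeks (-0.43 to 0.62) and between irradiated groups (-0.10 to 0.25), Tap1 (-0.05 to 0.92) and Nlrc5 (-0.05 to 0.65) between controls, Tapbp between irradiated groups (-0.42 to 0.23), and the change in effect of Psmb8 (-0.37 to 0.89), Psmb10 (-0.81 to 0.31), Tap1 (-0.37 to 0.62) and Tap2 (-0.05 to 0.53). Library totals moved the median of all genes by 0.07, 0.23, 0.16, 0.31 and 0.16 (log2) in the 5 comparisons, in the order above.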
